A study of Mus musculus with 6 samples.

Results

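Mature oligodendrocytes of the mouse hypothalamus were followed here in nuclei from fed and fasted animals. A nucleus was taken as a mature oligodendrocyte if it held at least 1000 unique molecular identifiers (UMIs, 1 per captured RNA molecule), at least 3 UMIs of *Mog*, *Mag*, *Ermn* and *Mobp* together, at most 2 UMIs of the neuronal genes *Snap25*, *Syt1* and *Rbfox3*, and fewer than 2 UMIs of the precursor genes *Pdgfra* and *Cspg4*. These limits kept 1389 of 39665 nuclei with at least 1000 UMIs, or 3.50%. The members were therefore chosen by measured values, and the levels of these 9 genes and the total UMI count are given below as descriptions only.

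All mice were male wild-type C57Bl/6 animals of 6 to 8 weeks, and nuclei of the hypothalamus were profiled by droplet sequencing of RNA 3′ ends. The groups were 12 mice with free access to food (ad libitum fed), in 2 pools of 6, and 6 mice without food for 16 h (fasted), in 1 pool. The ad libitum fed pools were made on separate days, and nuclei stained with a DNA dye were sorted from each pool into 2 tubes, which gives 4 ad libitum fed and 2 fasted libraries. The labels do not say which ad libitum fed libraries share a pool, and libraries of 1 pool hold the same mice, so tests were run on pool sums under each of the 3 possible poolings and the largest p was kept. The day of the fasted pool is not given, and with 1 fasted pool the effects of feeding state and of the pool cannot be told apart.

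Oligodendrocytes wrap axons in myelin, a stack of compacted membrane rich in cholesterol and galactolipids, which speeds conduction. They arise from *Pdgfra*-positive precursors through a committed stage marked by *Gpr17*, *Bmp4* and *Enpp6*, and mature cells also supply axons with metabolites and buffer potassium. Like most cells they carry the glucocorticoid receptor, a hormone-activated transcription factor that binds paired half-sites in DNA and raises a set of target genes when corticosterone is high. In rodents, fasting is a known stimulus for corticosterone release.

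A myelin gene that the rule did not use went with the name. *Mbp*, whose product compacts the myelin membrane, had at least 1 UMI in 95.6 to 100% of the members of each library. In neurons of the same libraries, whose median was 4698, 4819, 8844, 8912, 6920 and 6905 UMIs against 1743, 1722, 4618.5, 5308, 2495.5 and 2521 in the members, the corresponding share was 15.6 to 29.9%. After each nucleus was thinned to 1000 UMIs the share with *Mbp* was 90.5 to 97.0% in the members, against 3.46 to 5.18% in neurons. The share of members with *Mog* lay between 87.5 and 96.3%, with *Mag* between 77.4 and 100%, with *Ermn* between 46.0 and 75.0%, and with *Mobp* between 62.5 and 94.2%. The 10 genes with the highest share of UMIs included *Malat1*, a nuclear RNA, *Ptgds*, which makes prostaglandin D2, *Mbp*, the adhesion gene *Pcdh9* and *Nkain2*, whose product binds the sodium pump.

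At the threshold, 66 members held exactly 3 UMIs of the 4 marker genes and 55 nuclei that met the other limits held 2. *Opalin*, a gene of mature cells, was detected in 39.4% of the first and 21.8% of the second. Among the 1240 members with at least 5 marker UMIs, *Opalin* was detected in 55.0%. The neuronal limit removed 285 nuclei, which were 19, 16, 67 and 71 in the ad libitum fed and 47 and 65 in the fasted libraries. In ad libitum fed libraries 3 and 4 it removed more than the 24 and 33 nuclei kept, so their shares given below depended on this limit. The precursor limit removed 7. A simulated-doublet score marked 18 members, which were kept. The libraries shared 5 to 17 cell barcodes in pairs, and no barcode was a member in more than 1 library.

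Among the ad libitum fed libraries, the pair 1 and 2 stood apart from the pair 3 and 4. Their members held fewer UMIs than those of libraries 3 and 4, with the fasted libraries in between. Across the 10029 genes tested below, log2 levels correlated at 0.90 between libraries 1 and 2 and at 0.82 between libraries 3 and 4, but at 0.71 to 0.76 across these pairs. With the fasted libraries, libraries 1 and 2 correlated at 0.89 to 0.90, as closely as with each other, and libraries 3 and 4 at 0.73 to 0.77. Genes are not independent replicates, and these values describe the libraries. Ribosomal protein genes took 0.393% and 0.419% of the members' UMIs in libraries 1 and 2, 1.42% and 1.39% in libraries 3 and 4, and 0.278% and 0.290% in the fasted libraries. Mitochondrially encoded genes took 0.119%, 0.0780%, 0.208% and 0.276% under ad libitum feeding, against 0.0155% and 0.0220% after the fast. Several comparisons below, though not all, are therefore also given against either pair alone.

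The share of mature oligodendrocytes was 1.90%, 2.06%, 0.377% and 0.517% in the 4 libraries of ad libitum fed mice, whereas the 2 libraries of fasted mice held 8.30% and 9.18%. The 95% exact (Clopper-Pearson) intervals, which cover counting error only, were 1.62 to 2.21%, 1.73 to 2.43%, 0.242 to 0.561%, 0.356 to 0.726%, 7.62 to 9.03% and 8.45 to 9.94%. The fasted libraries thus exceeded every ad libitum fed one (8.74% ± 0.619 against 1.21% ± 0.889, SD, n = 2 and 4 libraries). The exact two-sided permutation test over pools gave p = 0.333 under every pooling, the smallest value that 2 pools against 1 can give. Among nuclei of at least 2000 UMIs the shares were 0.670%, 0.690%, 0.383% and 0.509% against 7.20% and 7.63%, so that those of ad libitum fed libraries 1 and 2 depended on the UMI limit. The members behind the shares at 1000 UMIs numbered 160, 137, 24 and 33 from ad libitum fed mice, and 496 and 539 from fasted mice. In ad libitum fed libraries 3 and 4 the neuronal limit had removed 67 and 71 nuclei with at least 3 marker UMIs.

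The share of neurons was lower and the shares of precursors and astrocytes were higher in both fasted libraries. Neurons made up 84.5%, 82.7%, 95.7% and 96.1% of the ad libitum fed and 71.4% and 70.3% of the fasted nuclei. Oligodendrocyte precursors were 0.877%, 1.19%, 0.126% and 0.172% against 2.53% and 3.18%, and astrocytes 3.46%, 3.60%, 0.629% and 0.564% against 6.51% and 6.61%. Per 100 precursors there were 216, 173, 300 and 300 mature oligodendrocytes under ad libitum feeding and 328 and 288 after the fast, so that the groups overlapped. Per 100 astrocytes there were 54.8, 57.3, 60.0 and 91.7 against 128 and 139, and among all nuclei not called neurons mature oligodendrocytes were 12.4%, 12.1%, 11.5% and 18.5% against 29.9% and 32.1%. Whether dissection, sorting or tissue composition set these shares was not tested. The plot of shares shows the spread between libraries of 1 group beside the counting intervals.

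**Figure D1:**
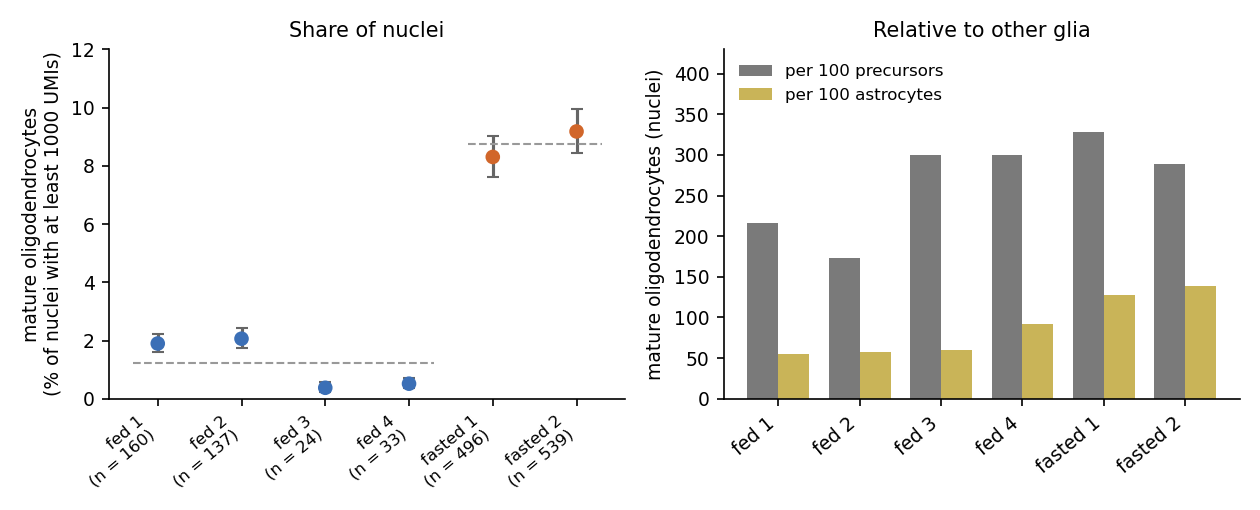
Share of nuclei called mature oligodendrocytes, as percent of nuclei with at least 1000 UMIs in each of the 6 libraries with its 95% exact interval (dashed lines mark group means), and the number of mature oligodendrocytes per 100 precursors or astrocytes of the same library. Both fasted libraries (8.30% and 9.18%) lie above the 4 ad libitum fed ones (0.377 to 2.06%), while the ratio to precursors overlaps between the groups.

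The members were not uniform, and 66 of them also met a gate for committed-stage nuclei (at least 3 UMIs of *Gpr17*, *Bmp4* and *Enpp6*). In these, *Tnr*, an extracellular matrix glycoprotein of the early lineage, had a level of 4821 CPM (UMIs of the gene per 1000000 UMIs of the nuclei) against 42.5 in the other 1323 members. The transcription factor *Tcf7l2* had 2811 against 113 CPM and *Bcas1*, a marker of newly forming oligodendrocytes, 4184 against 759 CPM. *Opalin* went the other way with 39.8 against 438 CPM, as did *Ptgds* with 435 against 5012 CPM and the myelin proteolipid *Mal* with 138 against 1179 CPM. The 66 nuclei also held more RNA, with a median of 5755 against 2337 UMIs, and came from every library. They were 7 of 160, 1 of 137, 6 of 24 and 6 of 33 members in the ad libitum fed and 19 of 496 and 27 of 539 in the fasted libraries. Their share of the members was thus highest in ad libitum fed libraries 3 and 4. The 66 were found within the selected nuclei by their own marker genes, so these contrasts are descriptions.

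Genes used elsewhere to divide mature oligodendrocytes were spread over many members. After thinning to 1000 UMIs, *Opalin* was detected in 40.6%, 38.7%, 29.2% and 30.3% of the ad libitum fed and 26.0% and 32.5% of the fasted members, and in at most 0.422% of the neurons of any library. *Il33*, a nuclear cytokine, was detected in 36.9%, 32.1%, 20.8% and 12.1% against 23% and 24.9%, or 43.1%, 43.8%, 20.8% and 24.2% against 40.1% and 37.7% without thinning. For *Ptgds* the shares were 65.6%, 66.4%, 70.8% and 75.8% against 83.5% and 82.2%, but neurons reached 4.21 to 12.6%, and without thinning 78.8%, 75.2%, 87.5% and 87.9% against 91.7% and 89.2% of the members had it. Without thinning, the *Opalin* shares were 55.0%, 55.5%, 58.3% and 63.6% against 51.2% and 53.6%. *Klk6*, a secreted protease that marks another mature subset, was rare. It was detected after thinning in 6, 4, 3 and 2 ad libitum fed and 3 and 5 fasted members, and only 1 of these, in fasted library 2, also held *Opalin*. Its unthinned shares were 5.62%, 5.11%, 16.7% and 12.1% against 0.806% and 1.86%. The long noncoding RNA *Neat1* was found in 77.5% and 78.8% of the thinned members of the first ad libitum fed pair, in 16.7% and 27.3% of the second and in 68.3% and 71.4% in the fasted libraries, so that it separated the ad libitum fed pairs and not the feeding states. Without thinning these shares were 84.4%, 86.9%, 45.8% and 57.6% against 84.9% and 86.3%.

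To ask which genes differed with feeding state, UMIs of the members were summed per library, which gave 357026, 281925, 127129 and 182614 UMIs in the ad libitum fed and 1442885 and 1585050 in the fasted libraries. In these sums 1 UMI was worth 2.80, 3.55, 7.87, 5.48, 0.693 and 0.631 CPM, so a gene listed at 0 in libraries 3 or 4 may still have been present at several CPM. Of 10029 genes that reached 10 counts in 2 or more libraries, edgeR called 0 higher (0%) and 0 lower (0%) in fasted members at an adjusted p under 0.05, with 1 as the lowest adjusted p. Without adjustment, p was under 0.05 in edgeR for 60 genes higher (0.598%) and 221 lower (2.2%). The pooling with the largest p decided this, since with libraries 1 and 3 or 1 and 4 in 1 pool edgeR called 1271 and 1403 genes. DESeq2 on the same pool sums also called 0, with 17 higher and 187 lower at an unadjusted p under 0.05. The 2 fasted libraries exceeded every ad libitum fed library for 1523 genes (15.2%) and lay under each of them for 831 (8.29%), called above and below from here on. Of the genes tested 5159 passed the count filter only with fasted counts and 47 only with ad libitum fed counts. Where such a gene was high in the group that let it pass, it had to differ, and its log2FC and p are descriptions that support nothing. Values below are in CPM in the order ad libitum fed libraries 1 to 4 and fasted libraries 1 and 2, and each log2 fold change (log2FC, fasted over ad libitum fed) and unadjusted p is that of the pooling with the largest p in edgeR, and no single gene passed the adjusted threshold.

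Most glucocorticoid-responsive genes measured in mature oligodendrocytes were higher in both fasted libraries. Of the 17 genes of the list 14 were above and 1 below. The count filter kept 15 of the 17, of which 13 were above and 1 below, against 15.2% and 8.29% of all genes tested. The fasted sums were deeper, and 9 of the 15 passed the filter only through the fasted libraries, where most of them were high, so their number, their p-values and the median log2FC of 2.50 over the 15 lend no support to a difference. The other 6 (*Sgk1*, *Tsc22d3*, *Klf9*, *Errfi1*, *Ddit4* and *Mt1*) passed on ad libitum fed counts alone. Of these 5 were above, against 18% of the 4870 genes that passed in this way, their median log2FC was 0.77, and 1, *Sgk1*, had an unadjusted edgeR p under 0.05, where 0.349% of the 4870 did. The summed level of the list was 527, 585, 724 and 767 CPM, against 1941 and 1890 CPM after the fast.

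*Zbtb16* (GRCm38, chr9:48654297-48836222, minus strand, as for all gene positions here from the GENCODE annotation), which encodes the zinc finger repressor PLZF, had 22.4, 31.9, 0 and 0 CPM against 310.5 and 269 CPM. The groups were far apart, with a log2FC of 4.17 ± 0.94 (SE, unadjusted p = 0.000826, edgeR). *Zbtb16* was tested only through its fasted counts, where it was high, so its log2FC and p are descriptions. After thinning, *Zbtb16* was detected in 2.50% and 2.92% of the members of ad libitum fed libraries 1 and 2, in 0 of 24 and 0 of 33 members of libraries 3 and 4, which allows shares of up to 12.5% and 9.09%, and in 27.6% and 28% of the fasted members. Without thinning the shares were 4.38%, 6.57%, 0% and 0% against 53.4% and 51.2%. Neurons, whose shares may include free RNA, had 1.60%, 1.40%, 1.66% and 1.37% against 7.34% and 6.73% after thinning.

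*Fkbp5* (chr17:28399094-28517527, minus strand), the co-chaperone that damps the glucocorticoid receptor, had 8.4, 17.7, 15.7 and 21.9 CPM against 132 and 117 CPM (log2FC 2.90 ± 0.70, unadjusted p = 0.00145, edgeR). *Fkbp5* too was tested only through its fasted counts, so these values are descriptions. *Sgk1* (chr10:21882184-21999903, plus strand), a kinase that regulates ion transport, had 25.2, 49.7, 126 and 115 CPM against 326 and 343 CPM (log2FC 1.99 ± 0.76, unadjusted p = 0.0229, edgeR). The ad libitum fed pairs themselves differed for *Sgk1*, and both lay below the fasted libraries. Its thinned share was 27.8% and 30.8% in fasted members against 0.625%, 2.19%, 16.7% and 3.03%, and 3.85 to 6.23% in neurons, or 56.5% and 56.4% against 3.75%, 8.76%, 25.0% and 33.3% of the members without thinning. For *Fkbp5* the thinned shares were 13.7% and 11.3% in fasted members against 0.625%, 2.92%, 0% and 9.09%, where 0 of 24 members allows a share of up to 12.5%, and the neurons of the fasted libraries reached 5.69% and 5.09%. Without thinning they were 29.8% and 26.9% against 1.88%, 3.65%, 8.33% and 12.1%.

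*Arrdc2*, an arrestin-domain adaptor, had 44.8, 31.9, 23.6 and 21.9 CPM against 174 and 205 CPM (log2FC 2.50 ± 0.65). *Hif3a*, a subunit of the hypoxia-inducible factors, had 0, 7.09, 0 and 11 CPM against 81.1 and 89.0 CPM (log2FC 4.18 ± 0.82). The kinase gene *Pdk4*, which shuts carbohydrate-derived pyruvate out of oxidation, had 5.60, 7.09, 0 and 0 CPM against 29.1 and 33.4 CPM. For all 3 genes no ad libitum fed library reached a fasted one, although *Hif3a* and *Pdk4* each rested on 4 ad libitum fed UMIs. *Plin4*, a lipid droplet coat protein, had 3 UMIs in all ad libitum fed members and 207 in the fasted ones, a ratio of 21.6 with a 95% counting interval of 7.30 to 106. *Cdkn1a*, the cell cycle inhibitor p21, had 0 UMIs in all ad libitum fed members and 77 in the fasted ones (29.8 and 21.5 CPM), which is at least 8.04-fold higher with 3 counts over the group as the floor. *Arrdc2*, *Hif3a*, *Pdk4*, *Plin4* and *Cdkn1a* were all tested only through their fasted counts, so their differences are descriptions.

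The remaining members of the list had smaller differences, apart from *Per1*, which is given below with the clock genes. *Klf9*, a transcription factor that responds to thyroid hormone and glucocorticoids, had 75.6, 81.6, 94.4 and 82.1 CPM against 157 and 148 CPM (log2FC 0.77 ± 0.63). *Tsc22d3*, which encodes the glucocorticoid-induced leucine zipper protein, had 101, 74.5, 86.5 and 54.8 CPM against 157 and 132 CPM (log2FC 0.77 ± 0.63). *Errfi1*, a brake on epidermal growth factor signaling, had 72.8, 106, 39.3 and 49.3 CPM against 166 and 174 CPM, and *Ddit4*, an inhibitor of mTOR complex 1, had 56.0, 67.4, 86.5 and 87.6 CPM against 128 and 138 CPM. The metallothionein genes did not share this order. *Mt1* had 84.0, 81.6, 236 and 290.2 CPM against 105 and 105 CPM, between the ad libitum fed pairs, and *Mt2* had 11.2, 17.7, 15.7 and 16.4 CPM against 8.32 and 6.94 CPM. *Nedd9* and *Sult1a1* had too few counts to be tested. The glucocorticoid receptor gene *Nr3c1* had 140.0, 153, 110.1 and 98.6 CPM against 99.8 and 111 CPM, and the mineralocorticoid receptor gene *Nr3c2* had 78.4, 46.1, 23.6 and 43.8 CPM against 83.9 and 71.3 CPM, so that both overlapped between the groups.

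**Figure D2:**
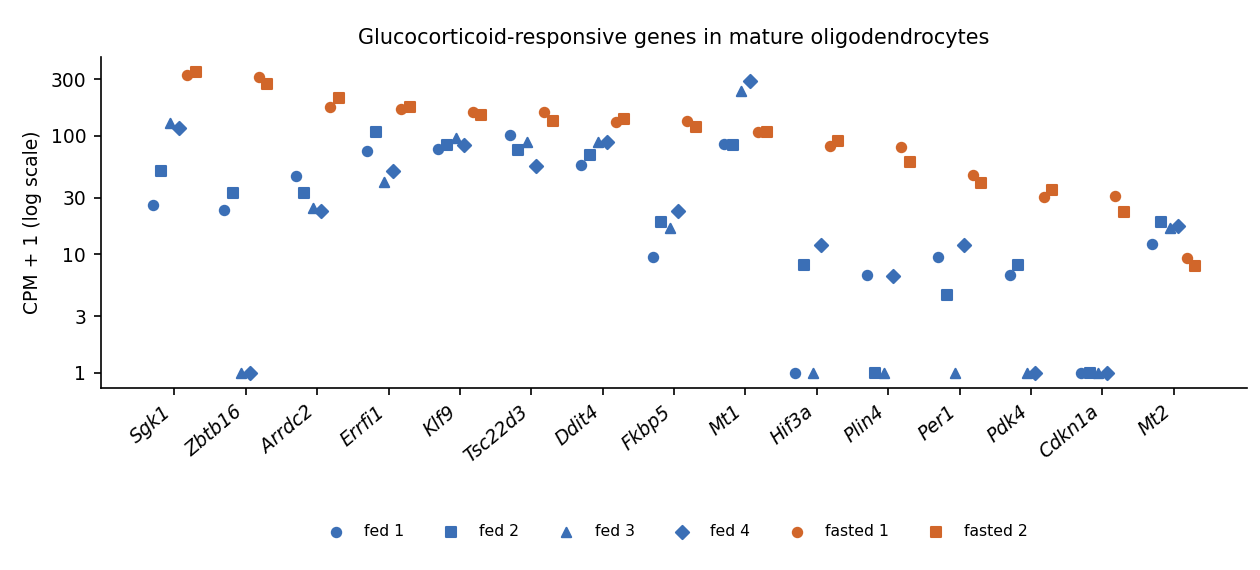
Levels of the tested genes of the glucocorticoid-responsive list in summed mature oligodendrocyte UMIs of each library, as CPM + 1 on a log axis, with 1 point per library. The fasted points exceed every ad libitum fed point for 13 of the 15 tested genes (15.2% of all genes tested), the exceptions being *Mt1* and *Mt2*, and 9 of the 15 passed the count filter only through the fasted libraries.

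Because the receptor binds paired half-sites, the start-site windows of the list were searched for the letters GNACA and TGTNC with 3 bases of any kind between them, a palindrome that is the same on both strands. RefSeq windows from 250 bases before to 50 bases after each annotated start (build GRCm38.p6) were available for 16 of the 17 genes, and 2 of the 16 held a match. Of all 32851 windows 0.475% held one, as did 0.377% of 7692 tested genes with a window. Both matches are shown with 24 bases on either side because they are the 2 in the list, one in a gene with higher fasted levels and one in a gene without, and the capitals mark the 13 matched bases. The *Sgk1* stretch spans chr10:21993678-21993738 (plus strand), with the first matched base 188 bases before the start of that window's transcript, and the *Mt1* stretch spans chr8:94178971-94179031 (plus strand), with the first matched base 94 bases before the start.
Sgk1: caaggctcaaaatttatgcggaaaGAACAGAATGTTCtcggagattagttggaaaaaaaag
Mt1: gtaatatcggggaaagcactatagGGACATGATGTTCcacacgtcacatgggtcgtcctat
A match of letters is no evidence of binding, and windows without one say nothing about sites elsewhere in a gene.

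Other lists linked to fasting also held genes that were above. Of 14 FoxO-linked and fasting-linked genes 10 were tested, and 6 were above and 0 below, where 15.2% and 8.29% of all genes tested were. The median log2FC was 0.68, but 6 of the 10 were tested only through their fasted counts. Of the 4 that passed on ad libitum fed counts alone 3 were above, where 18% of all such genes were. *Klf15*, a regulator of amino acid and lipid use, had 5.60, 0, 7.87 and 11 CPM against 39.5 and 30.9 CPM (log2FC 2.54 ± 0.87) and was tested only through its fasted counts. *Foxo1*, the transcription factor restrained by insulin, had 14, 10.6, 7.87 and 11 CPM against 33.3 and 30.9 CPM and was likewise tested only through its fasted counts. The insulin receptor gene *Insr*, which passed on ad libitum fed counts, had 78.4, 81.6, 62.9 and 82.1 CPM against 131 and 141 CPM. *Irs2*, *Foxo3* and *Cdkn1b* overlapped between the groups. *Pdk4* belongs to this list and to the glucocorticoid list, as *Per1* does to the clock list.

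Of 17 circadian clock genes 11 were tested, with 4 above and 0 below and a median log2FC of 0.37, where 15.2% and 8.29% of all genes tested were above and below. The median was 0.15 over the first ad libitum fed pair and 0.69 over the second. Of these 11, 7 were tested only through their fasted counts, and 2 of the other 4 were above. The period gene *Per1* had 8.4, 3.55, 0 and 11 CPM against 45.7 and 39.1 CPM (log2FC 2.64 ± 0.77) and was tested only through its fasted counts. The transcription factor *Tef* had 53.2, 60.3, 39.3 and 49.3 CPM against 123 and 127 CPM, and *Cry2* had 36.4, 46.1, 7.87 and 11 CPM against 61.0 and 64.4 CPM. *Arntl*, which encodes BMAL1, had 25.2, 14.2, 31.5 and 16.4 CPM against 43.0 and 37.9 CPM and was also tested only through its fasted counts. *Clock*, *Rora* and *Per3* overlapped. Of 10 immediate early genes 3 passed the count filter, and all 3 overlapped between the groups. Among 10 hormone receptor genes 7 were tested, with *Insr* and *Igf1r* above and 0 below.

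Among genes with a mean of at least 100 CPM, the 12 with the widest gap between the lowest fasted and the highest ad libitum fed library, higher in fasted members, included *Zbtb16* and *Sgk1*. *Adipor2* (chr6:119353150-119417704, minus strand), a receptor for adiponectin and a regulator of membrane lipid composition, had 260.5, 280.2, 94.4 and 137 CPM against 921 and 958 CPM (log2FC 2.19 ± 0.67, unadjusted p = 0.00711, edgeR). It was detected after thinning in 25.0%, 22.6%, 12.5% and 21.2% of the ad libitum fed and 59.5% and 55.1% of the fasted members, against 4.30 to 5.91% of neurons. Without thinning these shares were 37.5%, 40.9%, 33.3% and 54.5% against 83.7% and 82.2%. The unnamed transcript *Gm19439* had 44.8, 78.0, 70.8 and 43.8 CPM against 295 and 313 CPM.

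Several of the others had low spread between libraries. *Tmod2*, an actin-capping tropomodulin, had 272, 273, 259.6 and 246 CPM against 725 and 746 CPM (log2FC 1.38 ± 0.63). *Mat2a*, which makes the methyl donor S-adenosylmethionine, had 154, 135, 110.1 and 142 CPM against 406 and 397 CPM (log2FC 1.44 ± 0.62). *Rcan2*, an inhibitor of calcineurin, had 98.0, 78.0, 70.8 and 82.1 CPM against 264 and 244 CPM (log2FC 1.5 ± 0.62). For these genes all ad libitum fed libraries lay together. *Kcna1*, a voltage-gated potassium channel, had 193, 209, 236 and 214 CPM against 514 and 541 CPM, and *Arid5b*, a chromatin regulator, 92.4, 103, 86.5 and 104 CPM against 246 and 285 CPM. *Itpk1*, an inositol phosphate kinase, and *Polr3e*, a subunit of RNA polymerase III, were also among the 12, with log2FC of 1.86 ± 0.64 and 1.53 ± 0.62.

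**Figure D3:**
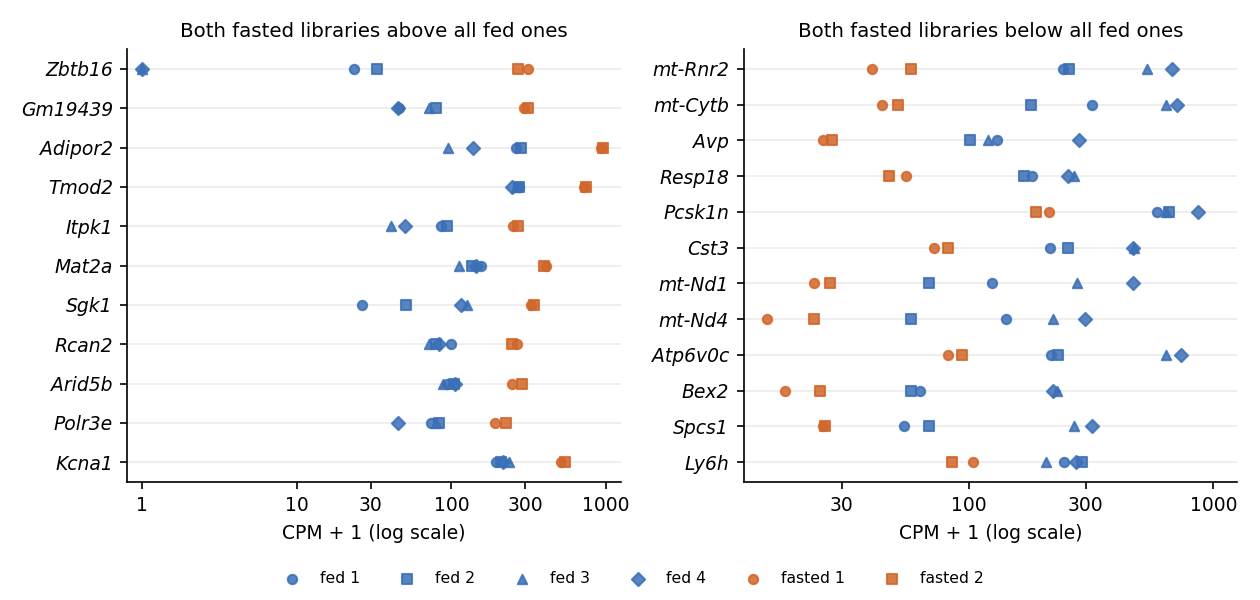
Levels as CPM + 1 on a log axis of genes among the 12 with the widest gap in each direction, with 1 point per library. *Tmod2*, *Mat2a*, *Rcan2*, *Kcna1* and *Arid5b* have ad libitum fed libraries close together, whereas most genes that were lower in fasted members also differ from the first to the second ad libitum fed pair.

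The genes with lower fasted levels were of other kinds. The 12 with the widest gap were 4 mitochondrially encoded genes (*mt-Rnr2*, *mt-Cytb*, *mt-Nd1* and *mt-Nd4*), the neuropeptide gene *Avp*, the neuroendocrine secretory genes *Resp18* and *Pcsk1n*, and *Cst3*, *Atp6v0c*, *Bex2*, *Spcs1* and *Ly6h*. *mt-Cytb*, which encodes cytochrome b, had 317, 177, 637 and 712 CPM against 43.0 and 49.8 CPM (log2FC of -3.48 ± 0.92, unadjusted p = 0.00271, edgeR). All 8 tested mitochondrially encoded genes were below, where 8.29% of all genes tested were, and 1 of the 8 passed the filter only through the ad libitum fed libraries. Their median log2FC was -3.23, or -2.13 over the first ad libitum fed pair and -3.24 over the second. All 37 genes of the list, tested or not, summed to 1193, 780, 2085 and 2760 CPM against 155 and 220 CPM. In neurons *mt-Cytb* had 119.6, 115, 503 and 511 CPM against 29.7 and 28.8 CPM, also lowest in the fasted libraries and highest in libraries 3 and 4.

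*Avp*, which encodes vasopressin and is made by neurons, had 129, 99.3, 118 and 279 CPM in the members against 24.3 and 26.5 CPM, and 120.3, 102, 569.6 and 489.7 CPM against 36.8 and 41.8 CPM in neurons. Of 12 hypothalamic peptide genes 11 were below, where 8.29% of all genes tested were. The 9 tested, 1 of which passed the filter only through the ad libitum fed libraries, were all below, 8 of them with an unadjusted edgeR p under 0.05 (2.2% of all genes tested were lower at that p), with a median log2FC of -2.67. All 12 genes of the list, tested or not, summed to 451, 585, 716 and 887 CPM in the members against 129 and 126 CPM, with *Avp* the most abundant. The 8 markers of neuronal identity summed to 2146, 2206, 1628 and 1769 CPM against 2054 and 1940 CPM, a sum made mostly of the noncoding RNAs *Meg3*, the most abundant, and *Snhg11*. Of 6 tested, 0 were above and 1 below, where 15.2% and 8.29% of all genes tested were, and their median log2FC was -0.47, or -0.37 and 0.08 over the respective pairs. *Celf4*, an RNA-binding protein, was the 1 below, with 75.6, 92.2, 78.7 and 93.1 CPM against 65.1 and 54.9 CPM. *Stmn2*, a regulator of microtubules, had 25.2, 63.8, 189 and 148 CPM against 33.3 and 20.8 CPM (log2FC of -2.08 ± 0.92, unadjusted p = 0.0432, edgeR) and overlapped between the groups. Astrocyte markers summed to 182, 220, 228 and 98.6 CPM against 235 and 213 CPM (*Slc1a3* the most abundant). Endothelial markers reached at most 12.5 CPM, with *Cldn5* at 0, and tanycyte and ependymal markers at most 24.6 CPM, with *Ccdc153* at 0. The part of free RNA in the lower peptide and mitochondrial levels was not tested.

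Chaperone genes and ribosomal protein genes followed the split between the ad libitum fed pairs. *Hspa5*, the chaperone BiP of the endoplasmic reticulum, had 56.0, 67.4, 496 and 509 CPM against 32.6 and 35.3 CPM, and *Hspa8* had 61.6, 92.2, 323 and 509 CPM against 40.2 and 46.7 CPM. Of the 8 tested chaperone genes 0 were above and 4 below (50%), where 15.2% and 8.29% of all genes tested were. An unadjusted edgeR p under 0.05 was reached by 4 of them, all lower, as by 2.2% of all genes tested. The median log2FC of the 8 tested chaperone genes was -2.14 over all 4 ad libitum fed libraries, -0.33 over the first pair and -2.42 over the second. Of 405 genes with ribosomal protein names, pseudogenes included, 84 were tested, with 2 above (2.38%) and 50 below (59.5%), where 15.2% and 8.29% of all genes tested were. Their median log2FC was -1.98, or -0.49 and -2.22 over the respective pairs. Reads of such near-identical copies can be split in counting, so single members of this family are not given.

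The direction of the myelin protein genes depended on the ad libitum fed pair. Of 14, all tested, 1 was above (7.14%) and 4 below (28.6%), where 15.2% and 8.29% of all genes tested were. Their median log2FC was -0.75, with 10 of the 14 negative, and 0 had an unadjusted edgeR p under 0.05 in either direction. *Mbp* had 3036, 2774, 3532 and 3138 CPM against 3991 and 4215 CPM (log2FC 0.28 ± 0.83). *Mal* had 479, 461, 4665 and 4890.1 CPM against 822 and 836 CPM, *Cldn11*, the tight junction protein of myelin, 431, 411, 1424 and 1435 CPM against 569.7 and 589.9 CPM, and *Cnp*, a myelin enzyme, 207, 170.3, 1046 and 1084 CPM against 204 and 244 CPM. For these 3 genes the ad libitum fed pairs were further apart than the feeding states, and the median log2FC of the list was 0.09 over libraries 1 and 2 and -0.94 over libraries 3 and 4. *Opalin* had 524, 482, 535 and 569.5 CPM against 356 and 368 CPM (log2FC of -0.67 ± 0.69), with the ad libitum fed libraries close together.

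The genes of the rule are given for description. *Mog* had 1322, 1628, 1487 and 1604 CPM against 1597 and 1649.8 CPM, and *Mobp* 907, 908, 637 and 898 CPM against 1627 and 1668 CPM. *Mag* had 1036, 983, 1888 and 1982 CPM against 904 and 929 CPM, and *Ermn* 356, 329.9, 653 and 652 CPM against 319 and 320.5 CPM. A nucleus with fewer UMIs of these genes had less chance to be chosen, so their levels depend on the choice.

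Among genes for the lipids of myelin the share above was near that of all genes. Of 13 tested, 2 were above (15.4%, against 15.2% of all genes tested) and 3 below (23.1%, against 8.29%), with a median log2FC of -0.29, which was 0.05 over the first ad libitum fed pair and -0.39 over the second. *Ugt8a*, the ceramide galactosyltransferase, had 664, 560.4, 684 and 542 CPM against 401 and 384 CPM (log2FC of -0.75 ± 0.69), whereas *Fa2h*, which hydroxylates the fatty acids of galactolipids, had 532, 543, 362 and 471 CPM against 756 and 702 CPM (log2FC 0.50 ± 0.66). *Acaca*, the first enzyme of fatty acid synthesis, had 319, 351, 236 and 197 CPM against 446 and 437 CPM. Of 16 genes of cholesterol synthesis and uptake, 2 were above (12.5%) and 4 below (25%), beside the same 15.2% and 8.29%. Their median log2FC was -0.69, or -0.14 and -0.75 over the respective pairs, and 14 of the 16 were negative. *Hmgcs1*, an early enzyme of the pathway, had 56.0, 81.6, 94.4 and 71.2 CPM against 36 and 39.7 CPM. *Insig1*, which holds sterol regulators in the endoplasmic reticulum, had 33.6, 39.0, 23.6 and 27.4 CPM against 57.5 and 51.1 CPM.

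For the lists that follow, 15.2% of all genes tested were above and 8.29% below. The transcription factors of the lineage had a median log2FC of 0.03 over 12 genes (-0.01 and 0.45 over the respective pairs), with 4 above (33.3%) and 0 below. *Sox10*, required at all stages, had 552, 560.4, 378 and 318 CPM against 534 and 596 CPM, and *Myrf*, which switches on myelin genes, 123, 153, 102 and 137 CPM against 193 and 201 CPM (log2FC 0.50 ± 0.62). Of 10 genes of axon contact and gap junctions 2 were above and 2 below (20% each). Their median log2FC of 0.11 changed sign with the pair, at 0.28 over libraries 1 and 2 and -0.11 over libraries 3 and 4. *Hapln2*, a link protein of the node of Ranvier, had 207, 326, 47.2 and 76.7 CPM against 362 and 401 CPM, and *Gjb1*, which encodes connexin 32, 64.4, 85.1, 181 and 235 CPM against 52.7 and 49.8 CPM. Among 14 genes of metabolic support and transport 2 were above (14.3%) and 4 below (28.6%), and *Ldhb*, a lactate dehydrogenase subunit, had 39.2, 35.5, 94.4 and 148 CPM against 15.9 and 16.4 CPM (log2FC of -2.45 ± 0.90, unadjusted p = 0.0194, edgeR). Of 10 receptor and guidance genes 0 were above and 2 below (20%). Committed-stage genes had a median log2FC of -0.62 with 0 above and 1 below of 11, and precursor-stage genes -0.67 with 0 above and 1 below of 9. Both medians changed sign with the pair, at 0.47 and 0.27 over libraries 1 and 2 and -0.77 and -0.45 over libraries 3 and 4.

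Of 13 tested genes that divide mature cells 2 were above (15.4%) and 5 below (38.5%), where 15.2% and 8.29% of all genes tested were, and 1 of the 5 passed the filter only through the ad libitum fed libraries. *Klk6* (chr7:43824499-43832030, plus strand) had 33.6, 35.5, 205 and 126 CPM against 4.16 and 6.94 CPM (log2FC of -4.21 ± 1.09), from few nuclei as given above, and passed the filter only through the ad libitum fed libraries, where it was high. As a log2 ratio of mean CPM + 5, its difference was -1.91 over libraries 1 and 2 and -4.01 over libraries 3 and 4. *Ptgds* had 2977, 2359, 8212 and 11719 CPM against 4349 and 4429.5 CPM, and *Il33* 426, 436, 62.9 and 82.1 CPM against 271 and 271 CPM, both with the fasted libraries between the ad libitum fed pairs. The plot of list medians sets each list beside all genes tested, whose own median was 0.01 over the first ad libitum fed pair and 0.26 over the second.

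**Figure D4:**
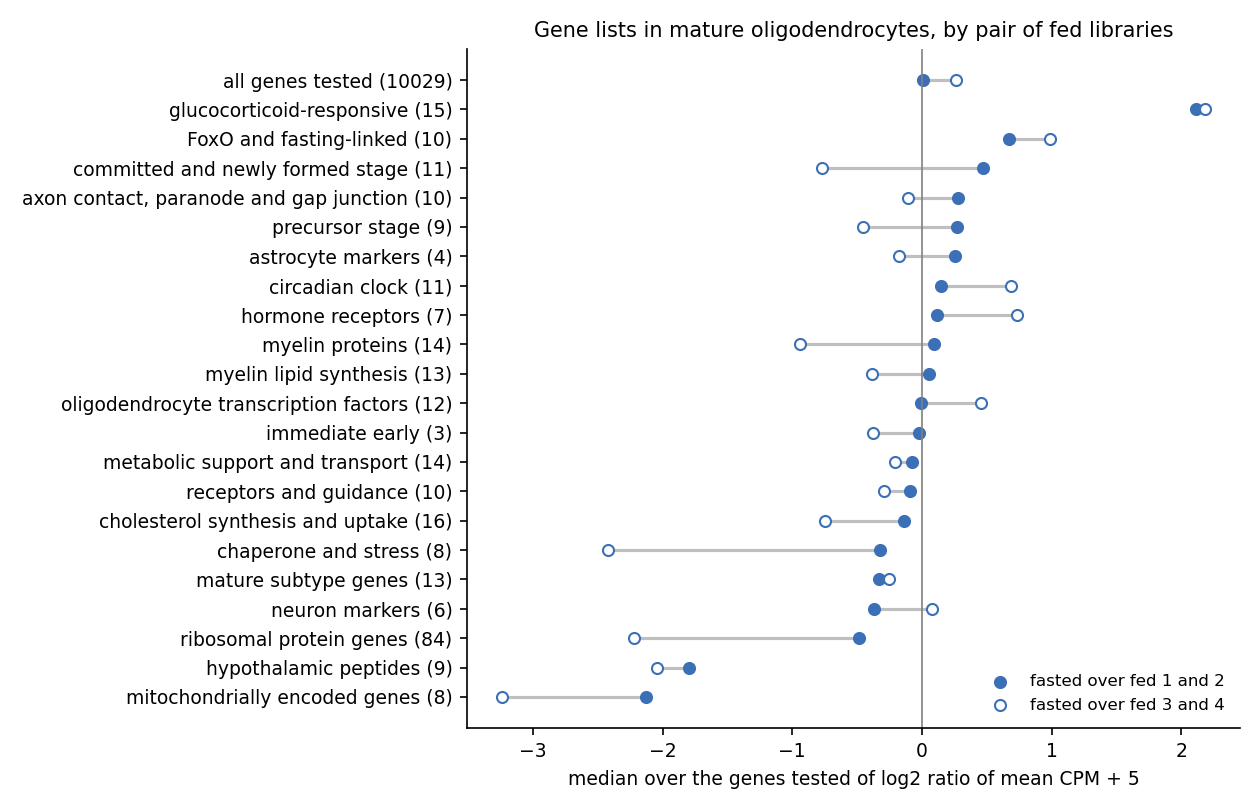
Median over the tested genes of each list (their number in parentheses) of the log2 ratio of mean CPM + 5, fasted over the first (filled) or second (open) pair of ad libitum fed libraries, in mature oligodendrocytes. The glucocorticoid-responsive list, with 9 of its 15 genes tested only through their fasted counts, has 2.11 and 2.18, while myelin proteins move from 0.09 to -0.94.

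Whether the ratio of fasted to ad libitum fed levels differed between mature oligodendrocytes and other classes of the same pools was tested as an interaction of cell class and state. Against 510 precursors, 2 of 6817 genes (0.0293%) were called by edgeR. *Rhoj*, a small GTPase, had 28, 49.7, 7.87 and 0 CPM against 166 and 146 CPM in mature oligodendrocytes, and 46.5, 80.9, 69.1 and 47.9 CPM against 52.8 and 51.2 CPM in precursors. The change was thus larger in mature oligodendrocytes by 2.86 ± 0.65 on the log2 scale (adjusted p = 0.0412, edgeR). In ad libitum fed libraries 3 and 4, however, *Rhoj* rested on 1 and 0 UMIs in mature oligodendrocytes and on 2 UMIs each in precursors. *Aebp1*, a secreted matrix protein, had 19.6, 14.2, 15.7 and 11 CPM against 30.5 and 33.4 CPM in mature oligodendrocytes, and 41.3, 31.5, 138 and 670.3 CPM against 18.3 and 29.7 CPM in precursors (difference 3.44 ± 0.73, adjusted p = 0.0175, edgeR). In mature oligodendrocytes *Aebp1* reached the count filter only through the fasted libraries, where it was high, so its call lends no support to a difference between the classes. The precursor value of ad libitum fed library 4 rested on 28 UMIs in 11 nuclei. Neither gene was called with another scaling (RLE), and with any 1 library left out at most 1 gene was called.

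Against 1384 astrocytes, 2 of 8638 genes (0.0232%) were called. *Sgk3*, a kinase related to *Sgk1*, had 70.0, 46.1, 31.5 and 11 CPM against 201 and 219 CPM in mature oligodendrocytes, and 63.9, 74.8, 33.5 and 37.7 CPM against 53.8 and 47.8 CPM in astrocytes (difference 2.46 ± 0.48, adjusted p = 0.00229, edgeR). *Zfhx3*, a homeobox transcription factor, went the other way, with 67.2, 67.4, 23.6 and 54.8 CPM against 65.8 and 57.4 CPM in mature oligodendrocytes and 143, 194, 134 and 90.6 CPM against 747 and 733 CPM in astrocytes (difference -2.19 ± 0.50, adjusted p = 0.0478, edgeR). With RLE scaling 0 genes were called, as without ad libitum fed library 1, 3 or 4. Next came *Zbtb16*, which missed the threshold with a difference of 2.12 ± 0.39 (adjusted p = 0.0766, edgeR) and was tested only through its fasted counts in mature oligodendrocytes, and *Rhoj* with 2.13 ± 0.53 (adjusted p = 0.125, edgeR). Against 33231 neurons, 0 of 9987 genes (0%) were called by edgeR, with a positive interaction (a higher ratio of fasted to ad libitum fed in mature oligodendrocytes) for 124 genes and a negative one for 72 at an unadjusted p under 0.05.

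Several glucocorticoid-responsive genes were also separated between feeding states in other classes. *Zbtb16* had 42.1, 28.8, 60.2 and 113 CPM against 154 and 174 CPM in astrocytes, 25.8, 22.5, 34.6 and 119.7 CPM against 138 and 154 CPM in precursors and 16.7, 15.4, 16.7 and 16.3 CPM against 75.9 and 72.8 CPM in neurons. The ad libitum fed precursor values of *Zbtb16* rested on 5, 5, 1 and 5 UMIs. With 1 more UMI, worth 23.9 CPM, library 4 would have overlapped the fasted libraries there. *Fkbp5* had 11.8, 1.92, 46.9 and 15.1 CPM against 80.2 and 80.3 CPM in astrocytes and 35.0, 33.3, 22.9 and 23.4 CPM against 58.2 and 55.7 CPM in neurons, but in precursors it overlapped, with 20.7, 36, 34.6 and 215 CPM against 108 and 122 CPM. *Hif3a* had 45.4, 57.5, 66.9 and 75.5 CPM against 346 and 354 CPM in astrocytes, 1.34, 1.97, 1.06 and 1.22 CPM against 4.75 and 6.08 CPM in neurons, and 0 CPM in every ad libitum fed library against 20.3 and 21.5 CPM in precursors. In precursors of ad libitum fed libraries 3 and 4, 1 UMI was worth 34.6 and 23.9 CPM, more than either fasted value. The 0 in these libraries thus cannot place them below the fasted ones. *Sgk1* was above in precursors, with 129, 166, 34.6 and 119.7 CPM against 189 and 238 CPM, and in neurons, with 47.1, 47.7, 42.8 and 42.2 CPM against 63.2 and 65.5 CPM, while in astrocytes it was at or below 14.2 CPM and overlapped. *Adipor2* was above in astrocytes, with 53.8, 53.7, 73.6 and 22.6 CPM against 75.1 and 75.3 CPM, and in neurons, with 43.3, 42.7, 50.1 and 51.4 CPM against 59.2 and 62.9 CPM, and overlapped in precursors. *Plin4* had low levels outside mature oligodendrocytes, at or below 5.09 CPM in every library of precursors, astrocytes and neurons, yet in neurons it was above as well, with 0.641, 0.738, 0.139 and 0.223 CPM against 1.09 and 1.09 CPM. The interaction of *Adipor2* with astrocytes was 1.73 ± 0.52 (adjusted p = 0.499, edgeR), so that a difference between the classes was not shown. In the 146 committed-stage nuclei, 66 of which are also counted as mature oligodendrocytes, *Zbtb16* overlapped, with 12.5, 0, 13.8 and 63.4 CPM against 84.7 and 52.6 CPM. *Sgk1* overlapped there too, with 125, 51.8, 317 and 279 CPM against 221 and 302 CPM. *Fkbp5* was above in this class, with 74.7, 51.8, 27.5 and 63.4 CPM against 94.1 and 101 CPM, but its ad libitum fed values rested on only 6, 2, 2 and 5 UMIs.

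**Figure D5:**
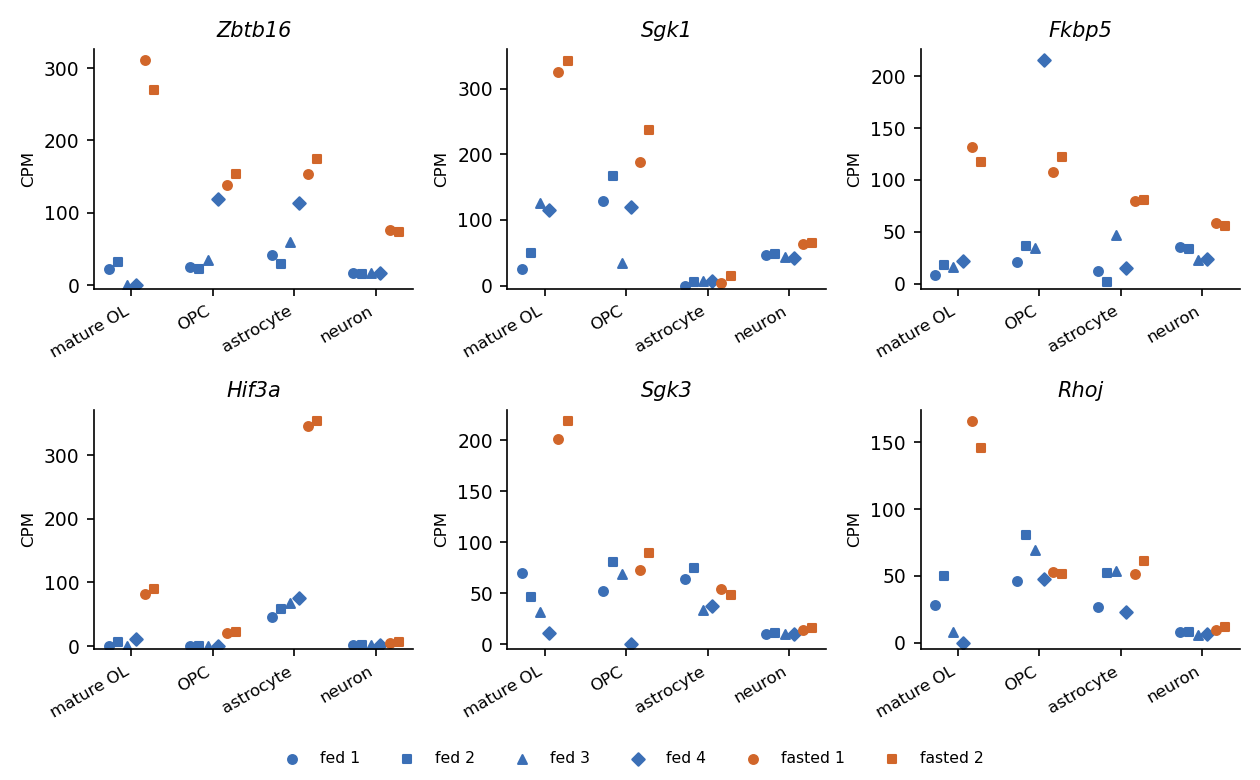
Levels of *Zbtb16*, *Sgk1*, *Fkbp5*, *Hif3a*, *Sgk3* and *Rhoj* in CPM per library in mature oligodendrocytes (mature OL), precursors (OPC), astrocytes and neurons, with 1 point per library. *Zbtb16* is higher in both fasted libraries in all 4 classes, though in precursors by less than 1 UMI is worth in ad libitum fed library 4. *Rhoj* is higher in both fasted libraries in mature oligodendrocytes and neurons, where it reaches 166 and 11.7 CPM.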

How the data were processed

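The deposited files hold raw UMI counts per gene and barcode. Per the submitters' processing notes, the authors aligned reads with Cell Ranger 5.0.1 to mm10. The paper's methods name the gene model and the removal of 1 gene so that *Kiss1* could be counted, and whether intronic reads were counted is not given in the sources used here. Total UMIs per library ranged from 31757655 to 59940795. Members, gene lists, named genes and tests were chosen with earlier results of these data known. Counts of the members were summed per pool and tested with edgeR 4.0.16 (quasi-likelihood, TMM) and, as an alternative, DESeq2 1.42.0, both in R 4.3.3, with Benjamini-Hochberg adjustment. Spread came from the ad libitum fed pools and was taken to hold for the lone fasted pool, so p-values measure the spread between pools. Thinning drew 1000 UMIs per nucleus without replacement in Python 3.11.15. Doublets were scored with scanpy 1.11.5, and the top 5% per library were marked but kept. CPM is scaled to all UMIs of the members of a library. Named genes were those of the rule and the lists, the 12 most separated in each direction at a mean of at least 100 CPM, and the 3 of smallest interaction p in each direction. Some genes that met this rule are not reported here. Replicate numbers shared by the groups did not pair the libraries: deviations of same-numbered libraries correlated at 0.0715 and -0.0433. No pair of libraries agreed within sampling noise in a chi-square test.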

Additional observations from a re-analysis of the deposited data

Results flagged for a closer look

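Among 87 quantities examined over the 4 ad libitum fed libraries, 4 had 1 library far from the others by Dixon's test of the gap to the nearest neighbor over the range, and chance flags about 1 in 20. *Mobp* had a ratio of 0.963, with library 3 low at 637 CPM against 898 to 908 CPM, and it is a gene of the selection rule. The number of mature oligodendrocytes per 100 astrocytes had a ratio of 0.859, with library 4 high at 91.7 against 54.8 to 60.0. *Avp* had a ratio of 0.836, with library 4 high at 279 CPM. *Grcc10* also had a ratio of 0.836.

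The edgeR interaction test of feeding state and cell class called 4 genes, and with RLE scaling it called 0 against precursors and 0 against astrocytes. Against precursors, *Aebp1* differed by 3.44 and *Rhoj* by 2.86 on the log2 scale, fasted over ad libitum fed in mature oligodendrocytes less the same in precursors. *Rhoj* was higher in fasted mature oligodendrocytes and overlapped between the groups in precursors, whereas *Aebp1* was higher in fasted mature oligodendrocytes and lower in fasted precursors, and it reached the count filter in the former only through the fasted libraries, so its call supports no difference. Against astrocytes, *Sgk3* differed by 2.46 and *Zfhx3* by -2.19, with the latter larger in astrocytes.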

How the results depend on the processing

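Counts of genes called depended on how libraries were pooled. The test of mature oligodendrocytes (0 called) called 6 with no count filter, 1271 with libraries 1 and 3 pooled, 1403 with libraries 1 and 4 pooled, 32 over 6 single libraries, 880 over 6 libraries with the replicate block, 2 in nuclei of at least 2000 UMIs, and 0 to 3 with a library left out (3 without ad libitum fed 1). The interaction with precursors (2 called) gave 0 with RLE scaling, 0 with no filter, 51 and 27 under these 2 poolings, and 0 to 1 with a library left out (0 without ad libitum fed 2, ad libitum fed 4 or fasted 1). The interaction with astrocytes (2 called) gave 0 with RLE, 1 with no filter, 4 with libraries 1 and 2 pooled, 82 and 51 under the other poolings, and 0 to 2 with a library left out (0 without ad libitum fed 1, 3 or 4, 1 without ad libitum fed 2). The interaction with neurons (0 called) gave 3 with RLE, 392 and 920 under these 2 poolings, and 0 to 15 with a library left out (15 without ad libitum fed 2). These added alternatives were chosen after seeing the data: the log2 ratio of shares (2.85, and 3.72 in nuclei of at least 2000 UMIs) was 2.14 without ad libitum fed libraries 3 and 4 and 4.29 without libraries 1 and 2. Genes with fasted libraries above all others (1523 of 10029 tested) numbered 2861 of 22246 with no filter, 936 of 6255 in thinned counts, 2704 without ad libitum fed libraries 3 and 4 and 4264 without libraries 1 and 2. Those below (831) numbered 508 of 8471 with no neuronal UMI allowed, 337 of 6255 in thinned counts, 2581 and 2172 without the respective pairs. The log2 fold changes of 52 named genes were also recomputed. These genes included the ones named because their fasted libraries lay beyond every ad libitum fed one, which could hardly reverse with a library left out. Of the 873 recomputed log2 fold changes 863 kept their direction, a count in part set by that choice. Those that reversed were *Mt1* (0.34 with the replicate block), *Lama2* (0.15 in nuclei of at least 2000 UMIs) and *Zfhx3* (-0.12 with the replicate block, -0.31 in nuclei of at least 2000 UMIs, -0.53 in thinned counts). With 1 library left out, reversals were in *1700047M11Rik* (-0.14 to 0.055), *Hr* (-0.53 to 0.0185), *Lama2* (-0.13 to 0.083) and *Zfhx3* (-0.079 to 0.17). The cause was not tested.

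Depth limits the ad libitum fed side, since libraries 3 and 4 held 24 and 33 members, and 1 fasted pool gives no measure of the spread between fasted animals.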
